A study of Homo sapiens with 2 samples.

Results

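The mRNAs of 10 apolipoprotein genes, APOA1, APOA2, APOA4, APOB, APOC1, APOC2, APOC3, APOE, APOH and APOM, were examined in RNA-seq data of Huh7 cells, a human hepatocellular carcinoma (HCC) cell line. The genes were chosen by their symbols out of the 61541 genes of the deposited table, and all 10 were found there with reads in both libraries. Huh7 cells received a negative control siRNA (Huh7-NC) or an siRNA against BRF2 (Huh7-si), and 1 library of total RNA was made from each of the 2 conditions, so that no difference between them has a replicate check. Which of the study's siRNAs was used for sequencing, and how long after transfection the RNA was taken, are not given in the sources used here. Both libraries come from the same cell line and differ, by their labels, in the siRNA alone.

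Apolipoproteins coat the lipid particles that carry cholesterol and triglyceride in the blood, and the liver is a main source of most of them. APOB is the large structural protein of very low density and low density lipoproteins, whereas APOA1 and APOA2 are the main proteins of high density lipoprotein (HDL). The smaller APOC proteins and APOE move between particles and control their lipolysis and their uptake by receptors.

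APOB and most of the other apolipoprotein mRNAs differed between the libraries in opposite directions. APOB had 2.05 times as high a level in Huh7-si as in Huh7-NC, while APOA1 was 43.7% lower and 7 further apolipoprotein mRNAs were 18.8% to 33.8% lower. For the weakly expressed APOA4, one of the 7, the difference lay within counting error. APOH differed by less than its counting error. Change also went with gene length across the whole table: APOB is a long gene and the other 9 are short, and values for genes of like length are given with the results.

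The 4 stretches of sequence here show the members with the lowest and highest log2 fold change (APOA1 and APOB), the most abundant member (APOA2) and the member of lowest GC content (APOH). Each is 90 bases from the middle of the gene's longest coding exon in GRCh38, read 5′ to 3′ on the minus strand, where all 4 of these genes lie, with G and C in capitals. APOA1 (exon 4 of 4, chr11:116836066-116836155), is 72.2% G and C in this stretch. APOA2 (exon 3 of 4, chr1:161222939-161223028), is 53.3% G and C. APOH (exon 7 of 8, chr17:66214506-66214595), a short gene, is 30.0% G and C. APOB (exon 26 of 29, chr2:21008820-21008909), with 7572 coding bases in that exon alone, is 36.7% G and C.
APOA1: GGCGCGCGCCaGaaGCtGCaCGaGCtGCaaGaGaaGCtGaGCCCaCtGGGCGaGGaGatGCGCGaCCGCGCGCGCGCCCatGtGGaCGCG
APOA2: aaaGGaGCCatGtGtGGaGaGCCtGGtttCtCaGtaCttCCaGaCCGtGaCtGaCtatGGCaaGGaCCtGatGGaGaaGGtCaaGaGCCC
APOH: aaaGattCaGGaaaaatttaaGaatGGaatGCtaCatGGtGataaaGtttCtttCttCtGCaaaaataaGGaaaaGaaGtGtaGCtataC
APOB: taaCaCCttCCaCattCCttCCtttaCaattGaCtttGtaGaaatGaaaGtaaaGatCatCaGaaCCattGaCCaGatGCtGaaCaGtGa

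The deposited reads per gene are estimated counts, which need not be whole numbers. Their sums were 22852648 for Huh7-NC and 22089016 for Huh7-si, and a count of 0 would allow up to 3 reads, or 0.131 and 0.136 CPM (reads scaled to the same depth over all genes). BRF2 itself stood at 56.0 CPM in the control library and 16.5 CPM in the other (log2 fold change -1.77, 95% interval -1.94 to -1.60), so the target of the siRNA was lower in the library labelled for it. The 10 hepatocyte marker genes listed all had reads in both libraries and summed to 18106 and 18080 CPM. Of these, 9 had at least 10 reads over both libraries, as CYP3A4 had only 3 reads and 1 read. Markers of fibroblasts or stellate cells summed to 44.98 and 101 CPM, with DCN at 0 in both libraries, and their part in the differences given here was not tested. Markers of macrophages summed to 15.6 and 15.5 CPM with ADGRE1 and CD163 at 0, those of endothelial cells to 2.80 and 3.03 CPM with KDR and TEK at 0, and those of cholangiocytes to 366 and 381 CPM. The labels name Huh7 cells only, so these sums are levels of marker mRNAs and not measures of other cell types. Most of the fibroblast or stellate sum was COL1A2, at 32.3 and 76.4 CPM. In bulk RNA, a change in all cells and a change in some of them cannot be told apart.

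Levels of different genes were compared by TPM, which the authors scaled for gene length. APOA2 was the most abundant of the 10 mRNAs in both libraries, with 8216 TPM in Huh7-NC (rank 7 of all genes) and 6341 TPM in Huh7-si (rank 11). APOE, with 1868 and 1706 TPM, APOC1, with 1286 and 941 TPM, APOA1, with 1195 and 755 TPM, and APOC2, with 388 and 297 TPM, followed in the same order in both. The next places changed hands. In Huh7-NC they were held by APOH (127 TPM), APOC3 (109 TPM) and APOB (76.6 TPM), and in Huh7-si by APOB (179 TPM), APOH (153 TPM) and APOC3 (66.1 TPM). APOM (41.2 and 30.9 TPM) and APOA4 (2.37 and 1.85 TPM) were the least abundant in both. With 1 library per condition, which neighbours in this order differ beyond the spread of replicates is unknown.

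**Figure D1:**
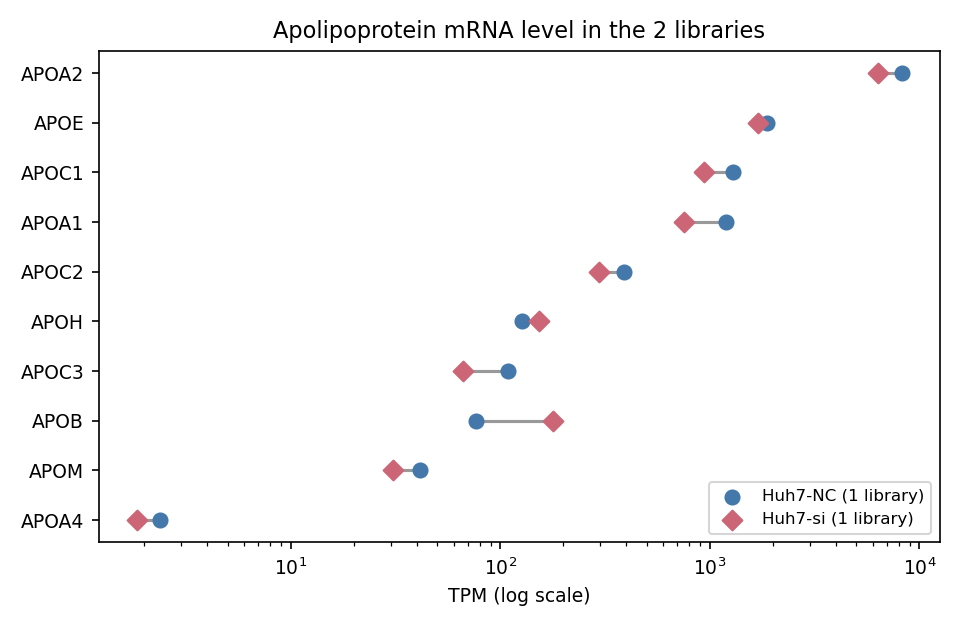
TPM of the 10 apolipoprotein mRNAs on a log axis, with a circle for the Huh7-NC library and a diamond for the Huh7-si library. APOB moved from 76.6 to 179 TPM, past APOC3 and APOH, while 8 of the 10 mRNAs lay lower in Huh7-si.

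Each fold change is a gene's CPM in Huh7-si divided by that in Huh7-NC, and intervals are 95% exact (Clopper-Pearson) intervals that cover counting error only and compare the 2 libraries, not the conditions. At a fold of at least 2, 1 of the 10 members was higher in Huh7-si (APOB) and 0 were lower. Of the 17955 genes with at least 10 reads over both libraries, 15.3% were higher and 1.85% were lower by that rule. At a fold of at least 1.5, 1 member was higher (28.9% of all genes tested) and 2 members, APOA1 and APOC3, were lower (5.85% of all genes tested). Of the 10 members 8 had a log2 fold change below 0, against 35.2% of all genes tested. The median log2 fold change was -0.52 over the 10 members and 0.21 over all genes tested.

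APOB (ENSG00000084674, chromosome 2 from 21001429 to 21044073, minus strand; positions of genes are those of GENCODE release 29 on GRCh38) encodes the protein on which liver cells build very low density lipoprotein. Its reads numbered 20889 in the control library and 41399 in the knockdown library, equal to 914 and 1874 CPM. APOB thus rose by 1.04 on the log2 scale (95% interval 1.01 to 1.06), and no other member passed a fold of 2. In reads it moved from rank 115 to rank 25 of all genes, and in TPM from rank 1883 to rank 816. With TMM scaling, which lowers every log2 fold change by 0.20, it was 0.84 and no longer past a fold of 2, and by the TPM columns it was 1.22. The median of all genes tested was also higher by TPM, at 0.39, than by total reads, at 0.21. APOB is 14121 bases long in the deposited table, and the 898 genes of 8484 bases or longer had a median log2 fold change of 0.67. In that group 668 genes had a lower log2 fold change than APOB and 229 had a higher one. Among the 476 protein-coding genes of 10000 to 20000 bases, the median was 0.75, 152 passed a fold of 2 in the same direction and 140 lay above APOB. The higher level of APOB was thus shared by many genes of its length.

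The HDL genes stood on the other side. APOA1 (ENSG00000118137, chromosome 11 from 116835751 to 116837950, minus strand) encodes the protein that takes up cholesterol from cells and activates the enzyme LCAT. Its 15460 reads in the control library and 8417 in the knockdown library equal 677 and 381 CPM, and its log2 fold change of -0.83 (-0.87 to -0.79) was the lowest of the 10. With TMM scaling the value was -1.03, past a fold of 2, and by TPM it was -0.66. Of the 898 genes of 700 to 959 bases, whose median was -0.17, 57 had a lower log2 fold change than APOA1.

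APOA2 (ENSG00000158874, chromosome 1 from 161222292 to 161223631, minus strand), the other main HDL protein, had 36380 and 25080 reads, or 1592 and 1135 CPM. Its log2 fold change of -0.49 (-0.51 to -0.46) did not pass either fold. APOM (ENSG00000204444, chromosome 6 from 31652416 to 31658210, plus strand), which carries sphingosine-1-phosphate on HDL, had 419 and 278 reads, or 18.3 and 12.6 CPM, with a log2 fold change of -0.54 (-0.77 to -0.32). BAG6, on the opposite strand, overlaps exons of APOM and had 7997 and 7942 reads, and since the strandedness of the libraries is not given, reads of the overlap cannot be told apart. APOA4 (ENSG00000110244, chromosome 11 from 116820700 to 116823306, minus strand), made mainly by the intestine, had 57 and 38 reads, or 2.49 and 1.72 CPM. Its interval, -1.17 to 0.08 around a log2 fold change of -0.54, included 0, so a difference was not detectable at this depth.

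The APOC genes encode small regulators of lipolysis. APOC1 (ENSG00000130208, chromosome 19 from 44914247 to 44919349, plus strand), an inhibitor of lipid transfer and receptor uptake, had 6035 and 4082 reads, or 264 and 185 CPM, and a log2 fold change of -0.52 (-0.57 to -0.46). APOC2 (ENSG00000234906, chromosome 19 from 44945982 to 44949565, plus strand), the cofactor that lipoprotein lipase needs, had 3148 and 2121 reads, or 138 and 96.0 CPM, and a log2 fold change of -0.52 (-0.60 to -0.44). APOC2 shares exons with the readthrough gene APOC4-APOC2, whose reads went from 1402 to 948. The sum of both gave -0.52 (-0.59 to -0.45), so how reads were split between them did not alter the value. APOC3 (ENSG00000110245, chromosome 11 from 116829706 to 116833072, plus strand), an inhibitor of lipoprotein lipase, had 428 and 274 reads, or 18.7 and 12.4 CPM, and a log2 fold change of -0.59 (-0.82 to -0.37). By the TPM columns APOC3 was the lowest of the 10, at -0.72. Its TPM per read was 0.08 lower in Huh7-si on the log2 scale, while that of each of the other 9 was higher, by 0.11 to 0.24.

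APOE and APOH differed least between the libraries. APOE (ENSG00000130203, chromosome 19 from 44905754 to 44909393, plus strand), the ligand by which remnant particles are taken up by cells, had 33265 and 26093 reads, or 1456 and 1181 CPM. The log2 fold change of -0.30 (-0.32 to -0.28) became -0.16 when the median of genes of like length was subtracted. APOH (ENSG00000091583, chromosome 17 from 66212033 to 66256525, minus strand), a phospholipid-binding plasma protein also called beta-2-glycoprotein I, had 2257 and 2302 reads, or 98.8 and 104 CPM. Its log2 fold change of 0.08 (-0.01 to 0.16) lay within counting error, and became -0.12 with TMM scaling and 0.27 by TPM, so that its direction depends on the scale. APOH was nevertheless above most genes of its length: of the 898 genes of 959 to 1223 bases, whose median was -0.14, 567 had a lower log2 fold change.

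**Figure D2:**
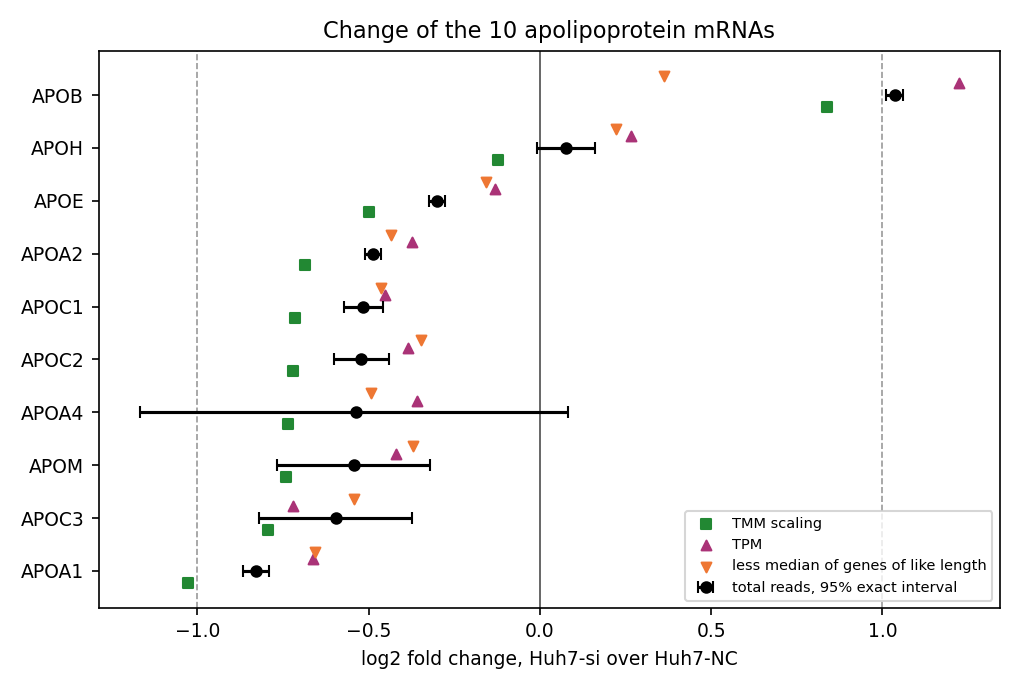
Log2 fold changes (Huh7-si over Huh7-NC) of the 10 mRNAs, with black circles and bars for total-read scaling and its 95% exact interval, squares for TMM scaling, upward triangles for TPM and downward triangles for the value once the median of like-length genes is subtracted. Dashed lines mark a fold of 2 either way, and APOB (1.04 by total reads, 0.36 less genes of like length) is the only gene at or above 0 on all 4 scales.

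Members were next set against each other within the same 2 libraries, a comparison that no scaling of library size can move. In all 12 pairs were compared, and the intervals are exact conditional intervals of the odds ratio of the reads. APOB had 1.35 reads for each read of APOA1 in the control library and 4.92 after knockdown, a difference in log2 fold change of 1.86 (1.82 to 1.91), or 1.89 by TPM. APOB was also above APOE by 1.34 (1.30 to 1.37) and above APOH by 0.96 (0.87 to 1.05). The pair of main HDL genes did not move equally, APOA1 lying below APOA2 by -0.34 (-0.39 to -0.30), and APOA2 lay below APOE by -0.19 (-0.22 to -0.15). APOH lay above APOM by 0.62 (0.38 to 0.86).

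APOE, APOC1 and APOC2 lie in one cluster on chromosome 19 (19q13). APOE was above APOC1 by 0.21 (0.15 to 0.28), or 0.32 by TPM, and above APOC2 by 0.22 (0.14 to 0.30). Between APOC1 and APOC2 the difference was 0.01 (-0.09 to 0.10), so the interval reached 0.10 at most in either direction. AC011481.3, a gene annotated across APOE and APOC1 on their strand, had 52.3 and 60.2 reads, few beside those of either gene. The pseudogene APOC1P1, a copy of APOC1, had 16.2 and 27.4 reads. The 7 other genes listed around the cluster ranged from -0.57 (TOMM40) to 0.55 (CBLC), with 1 of them below 0.

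APOA1, APOC3 and APOA4 lie together on chromosome 11 (11q23). APOA1 was below APOC3 by -0.23 (-0.46 to -0.01), but by TPM the difference was 0.06 with the opposite sign. Differences that involve the weakly expressed APOA4 were within counting error, -0.29 (-0.91 to 0.34) for APOA1 less APOA4 and -0.06 (-0.72 to 0.62) for APOC3 less APOA4. The remaining gene of the cluster, APOA5, which promotes lipolysis, had 26 and 14 reads. The antisense gene APOA1-AS had 0 reads in both libraries. The 7 genes listed around this cluster ranged from -0.21 (BUD13) to 0.79 (SIK3), with 3 of them below 0, and by total reads all of them lay above the 3 members. Less genes of like length this did not hold, as ZPR1 lay at -0.59, below APOC3 (-0.54) and APOA4 (-0.49).

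Together, the 10 genes took 0.518% of the reads in Huh7-NC (95% exact interval 0.515% to 0.521%), against 0.498% in Huh7-si (0.495% to 0.501%). Within that total, APOB went from 17.7% to 37.6%, APOA2 from 30.7% to 22.8%, APOE from 28.1% to 23.7% and APOA1 from 13.1% to 7.65%. TPM divides by gene length but does not remove the trend of fold change with length. On that scale the 10 genes went from 1.33% to 1.05% of the total. APOA2 was 61.7% and 60.6% of their TPM, APOE 14.04% and 16.3%, and APOB 0.576% and 1.71%. In percentage points these 3 shares moved less by TPM than by reads, but as a ratio that of APOB moved more, and that of APOE was higher in Huh7-si by TPM and lower by reads.

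**Figure D3:**
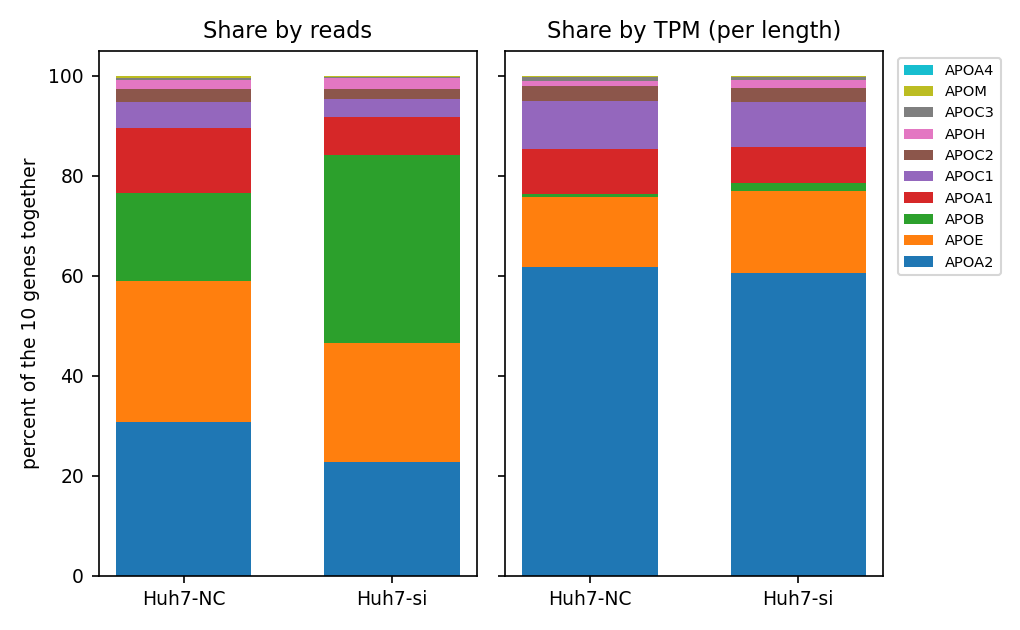
Share of each of the 10 genes in their summed reads (left) and in their summed TPM (right), in percent, for the Huh7-NC and Huh7-si libraries. By reads APOB grew from 17.7% to 37.6%, whereas by TPM APOA2 made up 61.7% and 60.6%.

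Length was examined next, since change varied with it across the table. All genes tested were put in 20 groups of like length. Their medians ran from -0.17 at 700 to 959 bases up to 0.67 at 8484 bases or longer, on the log2 scale. All 9 members other than APOB fall between 500 and 1500 bases, and among the 2211 protein-coding genes of that range the median was -0.27 (quartiles -0.49 and 0.05), with 1583 of them below 0. Of the 9 members 7 were below the lower quartile, APOE and APOH being the exceptions. With the median of the length group subtracted, the members' values were -0.65 for APOA1, -0.54 for APOC3, -0.49 for APOA4, -0.46 for APOC1, -0.44 for APOA2, -0.37 for APOM, -0.35 for APOC2, -0.16 for APOE, 0.22 for APOH and 0.36 for APOB. Their median was -0.40, and the 8 members that were lower by total reads were also below the middle of their length group. Across the 10 members, which share both libraries, the log2 fold change followed length with a Spearman's rho of 0.33, and across the 9 without APOB with 0.08.

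**Figure D4:**
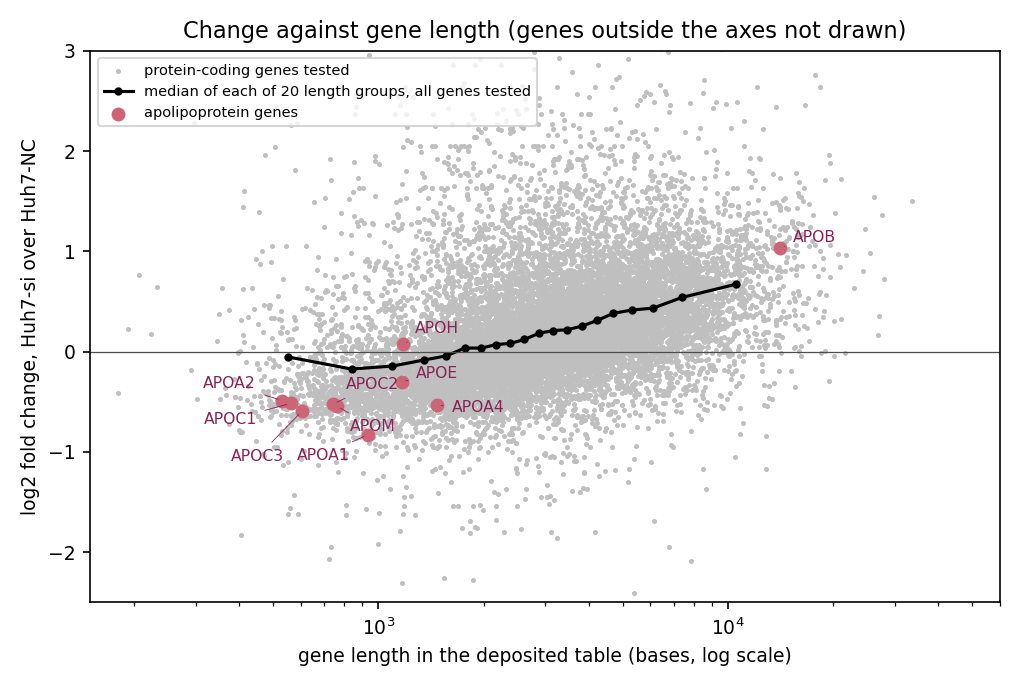
Log2 fold change (Huh7-si over Huh7-NC) against gene length on a log axis, with grey dots for protein-coding genes, a black line for the medians of 20 length groups and red points for the 10 apolipoprotein genes. APOB lies 0.36 above the line at its length, and 8 of the 9 short members lie below it.

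Base composition was taken from the coding transcript marked as principal for each gene in GENCODE release 29, the longest where several or none were marked. GC content ran from 42.9% in APOH to 68.5% in APOE, with 43.5% in APOB, 53.4% in APOA2 and 62.7% in APOA1, as the printed stretches show on a small scale. Across 14085 protein-coding genes, which are not independent of each other, Spearman's rho with log2 fold change was -0.16 for GC content and 0.46 for length. Across the 10 members it was -0.49 for GC content. A comparison with genes like each member in both length and GC content was added after seeing the data. It gave the members a median difference of -0.12, where length alone gave -0.40. It used protein-coding genes only, whereas the length groups held all genes tested, so these values differ by more than GC content. APOH was the exception, since it lay further from its like genes (0.35) than by length alone (0.22). APOA2 lay at -0.04 and APOC1 at -0.08 from the median of such genes, while APOA1 lay at -0.56, with 3 of its 188 like genes lower. APOB lay at 0.34, with 26 of 92 like genes higher, and APOH had 19 of 91 like genes higher. What length and GC content contribute to these differences was not tested.

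The other genes of lipoprotein biology were described by lists. Their counts stand beside those of all genes tested, of which 15.3% were higher and 1.85% lower by a fold of 2 (median 0.21). A further list held 26 genes with apolipoprotein-like symbols or HDL-bound products, among them APOC1P1, APOA1-AS and APOC4-APOC2. Of these, 19 had at least 10 reads. By a fold of 2, 1 rose (APOLD1, 23 to 46.1 reads) and 2 fell (APOL1, 46 to 22.1 reads, and APOL3, 14 reads to 1 read). None of the 3 had 100 reads, and all 3 were named after their values were seen. The most abundant of the 19, CLU and SERPINA1, which encode clusterin and alpha-1-antitrypsin, had log2 fold changes of -0.13 and -0.15. The list's median was -0.14.

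Of 34 genes of lipoprotein assembly and secretion, all had at least 10 reads and none passed a fold of 2, with a median of 0.10 that was -0.10 with TMM scaling. The most abundant were CALR and P4HB, a chaperone and a subunit of the triglyceride transfer complex, with log2 fold changes of -0.28 and -0.06. MTTP, the other subunit of that complex, which loads lipid onto APOB, was singled out after its values were seen. Its 3543 and 4932 reads gave a log2 fold change of 0.53 (0.46 to 0.59), below a fold of 1.5. At that fold MIA3 (0.87) and TM6SF2 (0.82) were higher and CIDEC (-0.84) and DGAT2 (-0.61) were lower, 4 genes that were likewise chosen after their values were seen. By total reads the list's median stood between APOB (1.04) and the members' median (-0.52). Less genes of like length, the list's median was -0.17, with 26 of the 34 genes below 0.

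Of 24 receptor genes, 21 had at least 10 reads, and 6 rose by a fold of 2 while 0 fell, with a median of 0.44. With TMM scaling 3 rose (LRP1B, LRP2 and SORL1). LRP1, a remnant receptor that binds APOE, went from 7377 to 15607 reads (log2 fold change 1.13, 1.09 to 1.17). LRP1B (1.58), LRP2 (1.22), SORL1 (1.22) and LRP6 (1.01) belong to the same receptor family, and CD36, a scavenger receptor, had 19 and 42 reads and was named after its values were seen. The 5 genes of this family that rose are long, at 10252 to 15850 bases, and less genes of like length their values were 0.34 to 0.91. The most abundant genes of the list were ATP5F1B (-0.51) and LRP5 (0.23). Less genes of like length, the list's median was -0.00.

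Of 21 genes of lipases, transfer proteins and lipid export, 19 had at least 10 reads, and 2 rose while 0 fell by a fold of 2. Both that rose encode transporters that move lipid across cell membranes. ABCA1, which loads cholesterol onto APOA1, went from 708 to 1566 reads (log2 fold change 1.19, 1.06 to 1.32), and ABCA7 from 280 to 870 reads (1.68, 1.49 to 1.88). Less genes of like length, ABCA1 was at 0.52 and ABCA7 at 1.14. With TMM scaling 1 of the 2, ABCA7, was past a fold of 2. FURIN (-0.49) and PCSK6 (0.18), which are proprotein convertases, were the most abundant. LPL and CETP had under 10 reads over both libraries. The median was 0.18, and -0.02 with TMM scaling.

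Of 41 symbols listed for transcription factors and cofactors of apolipoprotein genes, 40 matched the table and had at least 10 reads, and 2 rose while 0 fell by a fold of 2, with a median of 0.08 that was -0.12 with TMM scaling. PPARGC1A, a coactivator of nuclear receptors, went from 46 to 136 reads (log2 fold change 1.61, 1.12 to 2.13), and RORA, a nuclear receptor, from 31 to 104 reads (1.80, 1.21 to 2.42). Both were weakly expressed. Less genes of like length, the list's median was -0.17, with 26 of the 40 genes below 0. The most abundant, CEBPA, had 11601 and 7249 reads (log2 fold change -0.63, -0.67 to -0.59). HNF4A, a nuclear receptor that drives many apolipoprotein promoters, had 6766 and 6288 reads (log2 fold change -0.06, -0.11 to -0.01), but a value of 0.14 by TPM. Its direction thus depends on the scale, and on both scales it lay below the median of all genes tested (0.21, and 0.39 by TPM). Of the 4 genes of APOB mRNA editing with at least 10 reads, 0 passed either fold, and KHSRP (-0.13) and SYNCRIP (-0.11) were the most abundant. APOBEC1, the editing enzyme, had under 10 reads. Over the 118 genes tested in the 5 lists from assembly to editing, 10 rose and 0 fell by a fold of 2, and the median was 0.10. Of all genes tested, 15.3% were higher and 1.85% lower by that fold, and the median was 0.21.

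**Figure D5:**
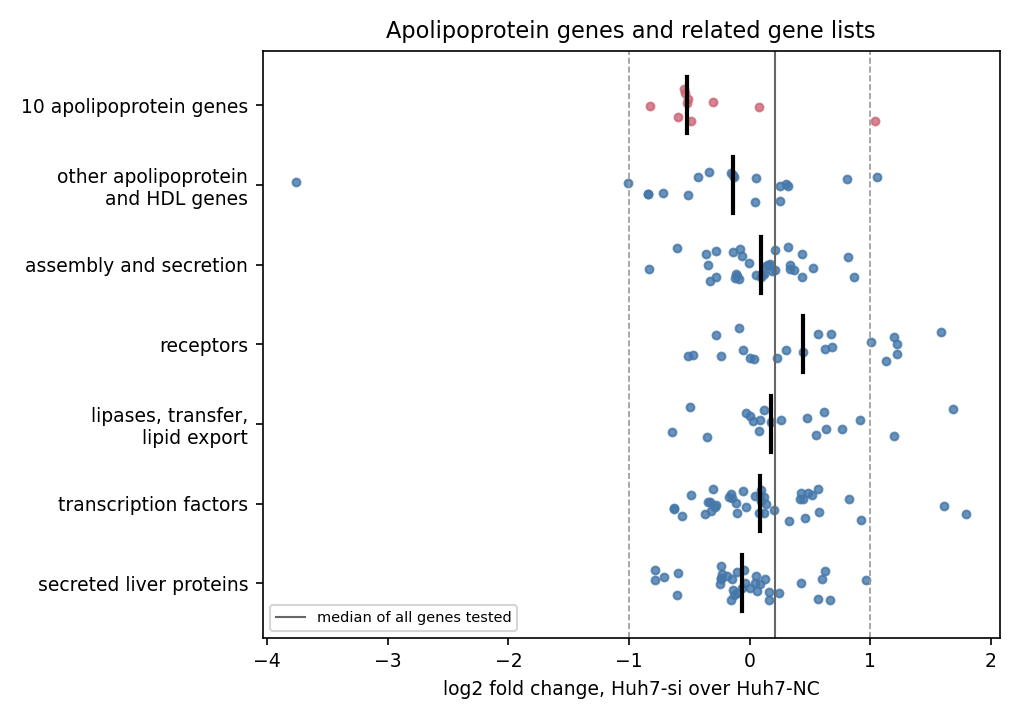
Log2 fold change (Huh7-si over Huh7-NC) of each gene with at least 10 reads in the apolipoprotein genes and 6 related lists, with a black bar for each list's median, a grey line for the median of all genes tested (0.21) and dashed lines at a fold of 2. The median of the 10 apolipoprotein genes (-0.52) is the lowest and that of the receptors (0.44) the highest.

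No spread between replicates could be estimated from these libraries, so one was assumed. The p values that follow rest on that assumed value, which these libraries cannot check. With edgeR's exact test and a biological coefficient of variation set to 0.4, the unadjusted p of the members ran from 0.22 for APOA1 to 0.89 for APOH, with 0.32 for APOB. None of the 10 was under 0.05.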

How the data were processed

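RNA-seq libraries of Huh7-NC and Huh7-si cells, 1 of each, were measured from total RNA. The authors deposited one table that holds, for each gene and library, an estimated count of reads shared out among genes and not scaled to depth, and a TPM value, scaled by the authors for gene length and depth, beside the gene length. Its columns of the authors' own comparison (fold, log2 fold, p and adjusted p) were not used. The submitters' processing notes name Bowtie2 2.0.6, TopHat2 2.0.12 and GRCh37, with no role or order, and the counting tool and strandedness are not given in the sources used here. GENCODE release 29 (GRCh38), which holds 94.8% of the identifiers, gave positions, gene types and transcripts; no coordinates were converted between builds. The estimated counts were rounded for intervals and tests on reads.

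Total reads were 22852648 and 22089016. CPM were calculated from total reads on genes, genes with at least 10 reads over both libraries were tested, and a fold of at least 2 was called, with 1.5 as a second threshold. Members of the set are the genes with the 10 symbols; from each list were named the genes that reached 100 reads in either library and passed a fold of 2 (at most 5 per direction), the 2 with most reads, and genes sharing exons or sequence with a member. Genes named outside this rule were chosen after their values were seen. One further gene of the lists is not reported here. The members and lists were chosen with earlier results of these data known. Alternatives were TMM, median-of-ratios and upper-quartile scaling, the total without the 100 top genes, the TPM columns, a pseudocount of 1 CPM, filters on reads, fold thresholds, protein-coding genes, subtraction of the median of genes of like length (20 groups), and edgeR's exact test with an assumed coefficient of variation of 0.4; like length and GC content was added after seeing the data. On simulated reads of 17955 genes for this comparison, 200 of them changed 4-fold, 200 passed a fold of 2 without extra spread and 170 once spread of 0.4 was put in. True changes lay inside 187 and 47 of the intervals. Of 12778 unchanged genes with at least 100 reads, 0 and 3089 passed. Python 3.11.15, NumPy 2.4.6, pandas 2.3.3, SciPy 1.17.1, matplotlib 3.10.9, R 4.3.3, edgeR 4.0.16 and DESeq2 1.42.0 were used.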

Additional observations from a re-analysis of the deposited data

How the results depend on the processing

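No paired analysis was possible because each condition has 1 library, and no library could be left out. The log2 fold change of BRF2 stayed past a fold of 2 under every alternative run. TMM, median-of-ratios and upper-quartile scaling lower every log2 fold change by 0.20, 0.21 and 0.19, and each of them left 0 members higher and 1 (APOA1) lower by a fold of 2, where total reads gave 1 and 0. APOB was 0.84, 0.83 and 0.85 and APOA1 -1.03, -1.04 and -1.01 under them, APOH was -0.12, -0.13 and -0.11, and the members' median was -0.72, -0.73 and -0.70. Less genes of like length, and with an assumed coefficient of variation of 0.4, 0 members were higher; less genes of like length and GC content the members' median was -0.12. At a fold of 1.5, 2 members were lower. The members other than APOB and APOH stayed below 0 on each of the 7 scales.

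Over all genes, 2740 higher and 332 lower became 5194 and 1050 at a fold of 1.5, 911 and 43 with a pseudocount, 7564 and 2364 with any read, 1668 and 128 at 1 CPM or more, 1346 and 144 for protein-coding genes and 450 and 67 with the assumed spread; 519 were lower under median-of-ratios scaling and 214 when an unadjusted p under 0.05 was also asked for. The share of higher genes was 89.2%, and 76.2% with any read. In the 5 related lists, 10 higher genes became 6 with TMM or median-of-ratios scaling, 4 less genes of like length, 0 with the assumed spread and 21 (with 5 lower) at a fold of 1.5. By a fold of 2, 1 gene was lower with the 3 scalings, 1 by TPM and 1 with any read, each a different gene. The members' share was 1.33% and 1.05% by TPM, and 0.538% and 0.526% of reads without mitochondrially encoded genes. By TPM, APOA1 less APOC3 was 0.057 and APOE less APOC1 was 0.32. The cause of these changes was not tested. Depth limits APOA4, with 57 and 38 reads, most.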

Other observations

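Of 35 other genes of proteins that the liver secretes into plasma, all had at least 10 reads and 0 passed a fold of 2 between Huh7-si and Huh7-NC, with a median log2 fold change of -0.07. At a fold of 1.5, 4 were higher and 5 were lower. Less genes of like length, the median of these 35 genes was -0.11, with 24 of them below 0. ALB, which encodes albumin, had 126940 and 113860 reads (log2 fold change -0.11), and AFP, the fetal counterpart that hepatocellular carcinomas often make, had 107941 and 123538 reads (0.24). The 5 lower genes included the acute phase genes ORM1 and ORM2, at -0.71 and -0.79, and RBP4, the carrier of retinol, at -0.60. The 4 higher genes included CP, which encodes ceruloplasmin, at 0.97, and the complement genes C3 and C5, at 0.62 and 0.66. The last 6 genes named, ORM1 to C5, were chosen after their values were seen. ORM1 and ORM2 are near-identical copies, so the split of their reads is uncertain.

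Of the marker genes for other cell types, those of enterocytes summed to 430 and 478 CPM in the control and knockdown libraries, with a median log2 fold change of -0.10 over the 5 with at least 10 reads, 3 of which were below 0. Most of that sum came from VIL1 (244 and 229 CPM) and from MTTP (155 and 223 CPM), a gene also in the assembly list. The brush-border gene SI rose from 32 to 108 reads, while the transcription factor gene CDX2 had 621 and 426 reads (-0.49). Of the fibroblast or stellate markers, COL1A1 rose from 76 to 229 reads, COL1A2 from 737 to 1687 and COL3A1 from 19 to 44. CDX2 and COL3A1 were named after their values were seen.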
